A study of Mus musculus with 6 samples.

Results

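Lkb1, the serine/threonine kinase encoded by *Stk11*, works as a complex with a Strad pseudokinase and an Mo25 scaffold protein, and it switches on AMPK and a family of AMPK-related kinases. This report describes the transcripts of that complex and of 5 of its substrate kinases in endothelial cells (ECs), the cells that line blood vessels. The 10 genes listed were *Stk11* itself, *Strada* and *Stradb* (the pseudokinases), *Cab39* and *Cab39l* (the genes of the Mo25 proteins), the salt-inducible kinases *Sik1*, *Sik2* and *Sik3*, the microtubule affinity kinase *Mark2*, and *Nuak1*. A gene was taken where a locus of the deposited table carried its symbol alone together with an Ensembl transcript, which held for 9 of the 10. *Strada* shares its locus with *Ccdc47* and *Gm25556*, and that joined locus is reported only as such. These 9 are among 53530 loci with a gene name and an Ensembl transcript, of which 17396 passed edgeR's default filter on low counts, all 9 included.

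ECs came from Stk11ec-/- mice (*Stk11* fl/fl with Cre recombinase driven by *Cdh5*, which cuts out *Stk11* exons 3 to 6) and from WT mice, all on a C57BL/6 background, with 3 libraries each. The labels give an age of 2 months for both groups. The labels list no treatment, and they do not say whether the WT mice carried Cre or a floxed allele. The sources do not state which tissue the ECs were taken from, or that the 3 libraries of a group are 3 mice. The p-values therefore rest on variation among libraries, and part of that variation may be technical. The Cre is driven by a promoter of vascular endothelium, and the paper reports the excision mainly in ECs and not in dendritic cells. Cells of another kind in a preparation may therefore keep an intact *Stk11*, which was not measured here. RNA was sequenced to a depth of 22179567 to 55545899 counted reads a library. Levels are given as CPM, read counts scaled to library size after TMM normalization, which compare one gene between libraries, and as FPKM, scaled to transcript length, which alone is used to compare genes with each other.

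Libraries within a group differed widely. The summed level of 14 endothelial markers (of 15 listed) was 1126, 2523 and 185 CPM in Stk11ec-/- replicates 1, 2 and 3, against 528, 296 and 250 CPM in WT replicates 1, 2 and 3. *Pecam1* ranged from 27.4 to 424.0 CPM and *Cdh5* from 37.5 to 830.9 CPM over the libraries. All but *Sox17*, *Sox18*, *Robo4* and *Cldn5* were counted in every library. *Sox17* had 0 reads in Stk11ec-/- replicate 1 and WT replicate 1, *Cldn5* in WT replicate 1, and *Sox18* and *Robo4* in WT replicate 2. The median log2 fold change of these 14 genes was 2.52, and 4 of them (*Plvap*, *Kdr*, *Emcn* and *Tie1*, at 4.27, 3.59, 2.68 and 2.47) were higher in Stk11ec-/- ECs at an unadjusted p under 0.05 by edgeR. After adjustment edgeR called 0 of the 14 and DESeq2 called 2. The sum of 10 pericyte and smooth muscle markers was 969, 1162 and 4618 CPM in Stk11ec-/- libraries, against 852, 354 and 9891 CPM in WT libraries. Fibroblast markers (7 of 10 with a locus of their own, *Dpt* at 0 throughout) summed to between 145 and 5240 CPM in Stk11ec-/- libraries and between 1044 and 2610 CPM in WT libraries. *Col1a1* made up most of the sum in Stk11ec-/- replicate 3 and in every WT library. It had 2119, 7317 and 231291 reads in Stk11ec-/- libraries, against 39266, 29492 and 98364 reads in WT libraries. *Thy1*, *Dcn*, *Fbln1* and *Postn* had log2 fold changes of 2.61, 1.70, -0.48 and -1.99. Haematopoietic markers stayed between 4.28 and 10.4 CPM in Stk11ec-/- libraries and between 10.4 and 20.1 CPM in WT libraries, with *Cd3e* at 0 throughout. Of 4 tested haematopoietic genes, edgeR called 0 and DESeq2 called 1 after adjustment. *Lyz2*, a macrophage gene, was at 0, 0 and 0.256 CPM in Stk11ec-/- libraries, against 1.36, 3.90 and 8.33 CPM in WT libraries. *Fcer1g* went the other way, at 0.855, 1.82 and 0.0640 CPM in Stk11ec-/- libraries, against 0.362, 0 and 0 CPM in WT libraries. *Cd68* and *Laptm5* had log2 fold changes of -0.81 and -0.42. Epithelial markers were at 8.80 to 59.6 CPM in Stk11ec-/- libraries and at 13.2 to 220.5 CPM in WT libraries, with *Epcam* at 0 throughout. The female-specific transcript *Xist* was at 267.5 to 464.4 CPM in Stk11ec-/- libraries and at 0.598 to 1.18 CPM in WT libraries, and the Y-linked *Kdm5d* at 0 to 0.171 CPM in Stk11ec-/- libraries and 8.67 to 12.4 CPM in WT libraries, so sex and genotype cannot be told apart. In bulk RNA, fewer cells of a type and less RNA per cell cannot be told apart either.

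Lkb1 differs from most kinases in that it is not switched on by phosphorylation of its own activation loop. It is held in its active form by Strad, a kinase fold that has lost catalysis, with Mo25 clamping the pair together, and it then phosphorylates 1 conserved threonine in the activation loop (T-loop) of AMPK and its relatives. AMPK is known for sensing energy shortage. The Sik kinases are known for holding Crtc coactivators and class IIa histone deacetylases in the cytoplasm through 14-3-3 proteins. Mark and Nuak kinases are known for acting on microtubule-associated proteins and on myosin phosphatase. All of this regulation is of the proteins, whereas the measurements here are of their transcripts.

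The T-loop is the site through which Lkb1 acts on these kinases, and its coding sequence is shown to set the substrates side by side. Each line holds 42 bases of the coding strand from the GENCODE M21 transcripts (GRCm38), read 5′ to 3′, with the codon of the threonine that Lkb1 phosphorylates in capitals. *Prkaa1*, an AMPK catalytic subunit outside the member list, is given for comparison.
Sik1: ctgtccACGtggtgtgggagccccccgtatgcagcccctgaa
Sik2: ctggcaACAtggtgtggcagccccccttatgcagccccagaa
Sik3: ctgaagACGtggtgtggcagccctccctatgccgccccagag
Mark2: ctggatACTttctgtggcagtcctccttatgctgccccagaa
Nuak1: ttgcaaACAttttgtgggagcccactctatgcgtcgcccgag
Prkaa1: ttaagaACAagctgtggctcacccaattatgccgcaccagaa
The capitals are codon 182 of *Sik1*, 175 of *Sik2*, 221 of *Sik3*, 208 of *Mark2*, 212 of *Nuak1* and 183 of *Prkaa1*, counted from the start codon of the transcript used. Each stretch lies inside 1 coding exon: exon 6 of *Sik1* (chr17:31850986-31851027, minus strand), exon 5 of *Sik2* (chr9:50917573-50917614, minus strand), exon 5 of *Sik3* (chr9:46177910-46177951, plus strand), exon 8 of *Mark2* (chr19:7285843-7285884, minus strand), exon 5 of *Nuak1* (chr10:84380780-84380821, minus strand) and exon 5 of *Prkaa1* (chr15:5169961-5170002, plus strand). *Sik1* and *Sik2* were identical at 36 of the 42 bases, and *Nuak1* and *Prkaa1*, the least alike of these pairs, at 23. Over the whole of the transcripts used, the longest identical stretch was 19 bases between *Sik2* and *Sik3* and 17 between *Cab39* and *Cab39l*. It was 14 bases between *Sik1* and either of the other Sik genes. This measure is not the identity by position given for the T-loop, and is not set against it.

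No member passed edgeR's quasi-likelihood test between the genotypes with Benjamini-Hochberg adjustment over all genes. At an adjusted p under 0.05 the test called 0 of the 9 members, where 13 of all 17396 genes, or 0.0747%, passed. At an unadjusted p under 0.05, 0 of 9 members passed, where 7.33% of all genes did (4.36% higher and 2.97% lower in Stk11ec-/- ECs). DESeq2, voom with sample weights and limma on either FPKM scale also called 0 members, and none of these tools gave a member an unadjusted p under 0.05. The members' log2 fold changes were positive for 4 and negative for 5, with a median of -0.01, against a median of 0.02 over all genes tested. For 6 members (*Stk11*, *Stradb*, *Sik1*, *Sik2*, *Sik3* and *Mark2*) the 95% interval of the difference lay within 2-fold in either direction. For *Cab39*, *Cab39l* and *Nuak1* it did not, and these libraries leave larger differences of those genes undetermined.

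**Figure D1:**
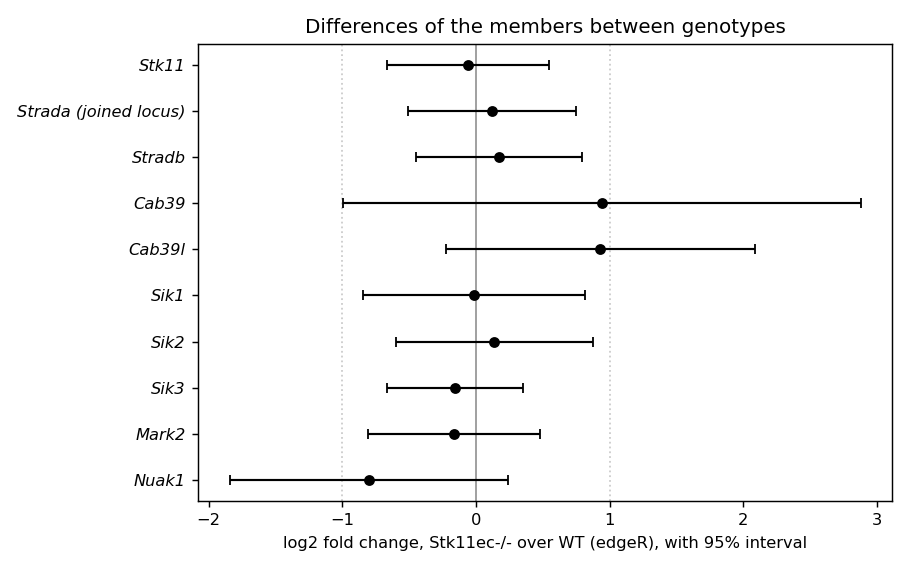
Log2 fold change of each member between Stk11ec-/- and WT ECs from edgeR (points) with its 95% interval (bars), 3 libraries a group, with the joined locus of *Strada* added; dotted lines mark a 2-fold difference in either direction. Every interval crosses 0, and those of *Cab39* (-0.999 to 2.88), *Cab39l* (-0.22 to 2.08) and *Nuak1* (-1.84 to 0.24) are the widest.

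*Stk11*, the targeted gene (chr10:80115803-80130682, plus strand), was counted first as a check of the labels. Its level was 60.9, 85.0 and 81.9 CPM in Stk11ec-/- replicates 1, 2 and 3, against 69.3, 92.0 and 76.0 CPM in WT replicates 1, 2 and 3. The groups overlapped, with replicate 1 the lowest library on both sides and WT replicate 2 the highest. The log2 fold change was -0.06 (SE 0.26, 95% interval -0.67 to 0.55), so that the level in Stk11ec-/- ECs was between 0.630 and 1.46 times that in WT ECs (edgeR's quasi-likelihood test, adjusted p = 0.97). On the FPKM scale *Stk11* averaged 14.1 ± 2.62 in Stk11ec-/- libraries and 12.03 ± 2.07 in WT libraries (SD, n = 3 each), and there the sign of the difference turned: the log2 difference was 0.21 by limma on log2(FPKM + 1), where the median gene shifted by 0.14.

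A count over the whole gene is a blunt check of this allele, because exons 3 to 6 make up only part of the message. In the main coding transcript of 2566 bases and 10 exons, they hold 488 bases, 19.0% of the transcript and 37.3% of its coding sequence. Had every transcript lost them and the rest been kept, the log2 change of the count would be -0.30, which lies inside the interval above. The deposited table gives no value per exon or junction, so neither the excision nor the share of cells that carried it was measured here. *Stk11* also overlaps *Cbarp* on the other strand by 232 bases, and whether reads were counted by strand is not stated.

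**Figure D2:**
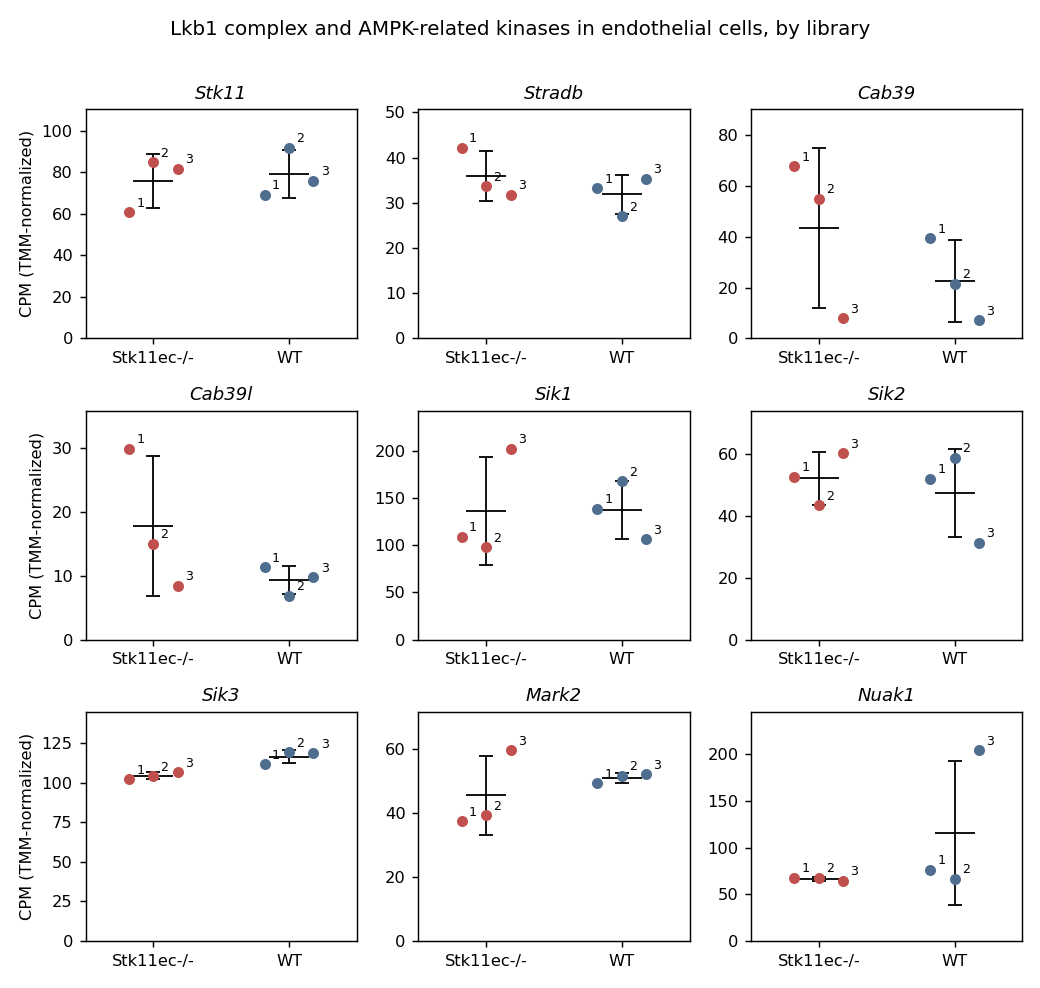
Level of each of the 9 members in CPM (vertical axes, from 0) in Stk11ec-/- and WT libraries; points are libraries labelled with their replicate number, and the horizontal mark and bar are the mean ± SD of 3 libraries. The groups overlap for every member except *Sik3*, replicate 3 of both genotypes is lowest for *Cab39*, and WT replicate 3 stands above the other 5 libraries for *Nuak1*.

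Among the partners that hold Lkb1 in its active form, the pseudokinase gene *Stradb* (chr1:58973522-58995715, plus strand) had a narrow range. It was at 42.2, 33.7 and 31.8 CPM in Stk11ec-/- replicates 1, 2 and 3, against 33.2, 27.0 and 35.4 CPM in WT replicates 1, 2 and 3. Stk11ec-/- replicate 1 was the highest and WT replicate 2 the lowest, and the other 4 libraries lay between 31.8 and 35.4 CPM. The difference was 0.17 on the log2 scale (SE 0.26), with an interval of 0.734 to 1.73 times the WT level (edgeR's quasi-likelihood test, adjusted p = 0.90). The joined locus that holds *Strada*, *Gm25556* and *Ccdc47* (chr11:106163152-106216344, minus strand) was at 47.7, 53.4 and 35.4 CPM in Stk11ec-/- libraries, against 37.2, 42.1 and 46.4 CPM in WT libraries. These values overlapped too, by a log2 fold change of 0.12 (SE 0.27), and how much of them belongs to the pseudokinase cannot be told apart from *Ccdc47*.

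The Mo25 genes spread more than any other members. *Cab39* (chr1:85793441-85851576, plus strand), which encodes Mo25α, was at 67.8, 55.0 and 7.91 CPM in Stk11ec-/- replicates 1, 2 and 3, against 39.4, 21.6 and 7.21 CPM in WT replicates 1, 2 and 3. Its highest library held 9.41 times the level of its lowest, and the low libraries were replicate 3 of both genotypes. Among the 8354 tested genes with a mean of at least 10 CPM, 92.2% had a smaller ratio of highest to lowest library, and the median ratio was 2.30. The log2 fold change was 0.94 with an SE of 0.83 (edgeR's quasi-likelihood test, adjusted p = 0.83), and its interval ran between 0.50 and 7.36 times the WT level. Stk11ec-/- replicate 3 and WT replicate 3 were also low in endothelial markers, at 185 and 250 CPM, and high in pericyte and smooth muscle markers, at 4618 and 9891 CPM; the part of this in the level of *Cab39* was not tested.

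*Cab39l* (chr14:59440972-59585764, plus strand), which encodes Mo25β, was at 29.9, 15.02 and 8.46 CPM in Stk11ec-/- replicates 1, 2 and 3, against 11.3, 6.89 and 9.78 CPM in WT replicates 1, 2 and 3. Stk11ec-/- replicates 1 and 2 exceeded every WT library, whereas Stk11ec-/- replicate 3 lay among them. The log2 fold change was 0.93 (SE 0.49, 95% interval -0.22 to 2.08), and the adjusted p of 0.71 by edgeR's quasi-likelihood test was the smallest of all members. The gene overlaps *Cdadc1* on the opposite strand over 26377 bases, so antisense reads may be among these counts. The libraries with most *Cab39l* and *Cab39*, Stk11ec-/- replicates 1 and 2, also had the highest endothelial sums, 1126 and 2523 CPM, whose part in these levels was not tested.

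With Stk11ec-/- replicate 3 left out, *Cab39* was 1.44 and *Cab39l* 1.27 higher on the log2 scale in Stk11ec-/- ECs, at unadjusted p-values of 0.064 and 0.024 by edgeR. Of all genes, 10.8% had an unadjusted p under 0.05 without that library. With neither Stk11ec-/- replicate 3 nor WT replicate 3, the log2 fold changes were 1.01 and 1.30, with unadjusted p-values of 0.043 and 0.041 by edgeR. At that setting 12.8% of all genes had an unadjusted p under 0.05, and 0 genes passed after adjustment. Replicate 3 held the least *Cab39* in each genotype, and Stk11ec-/- replicate 3 the least *Cab39l* of its group. Leaving out the lowest library of a group raises its mean and narrows its spread. These p-values are therefore not independent of the libraries left out, and no difference is concluded from them. As to the balance between both Mo25 genes, *Cab39* made up 66.7%, 76.4% and 45.1% of their summed FPKM in Stk11ec-/- replicates 1, 2 and 3, against 75.4%, 73.5% and 39.3% in WT replicates 1, 2 and 3. The mean share was 62.7% ± 16.03 in Stk11ec-/- libraries and 62.7% ± 20.3 in WT libraries (SD, n = 3 each; two-sided exact permutation test, p = 1.0, where 3 against 3 libraries cannot go below 0.10). In both genotypes replicate 3 had the lowest share.

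**Figure D3:**
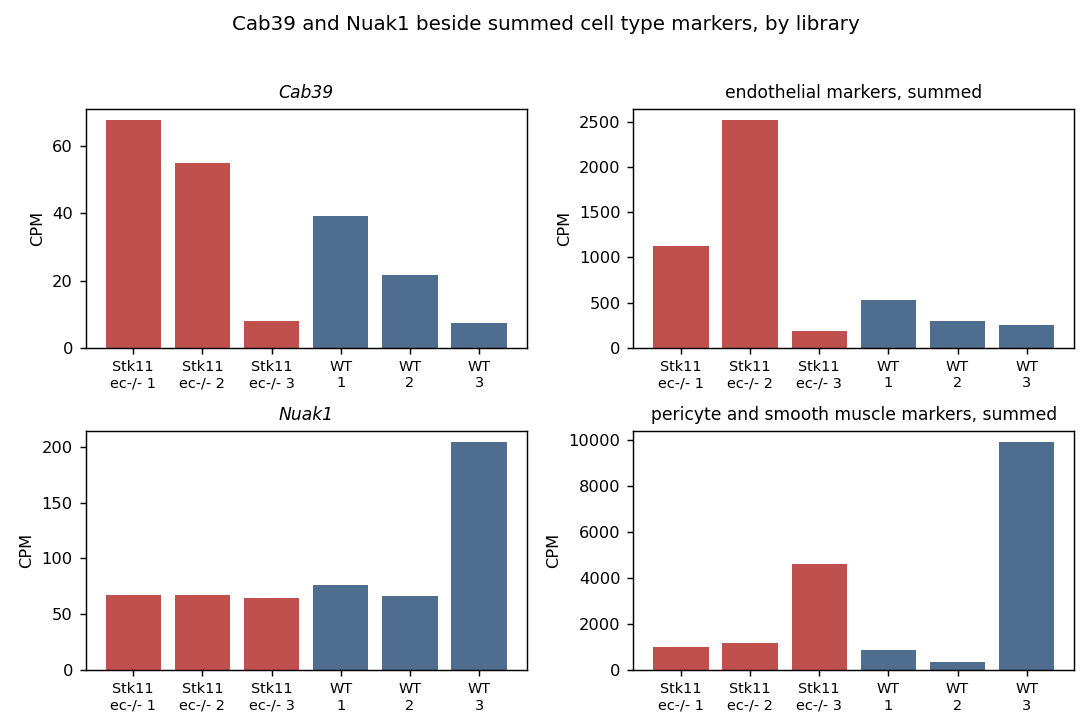
CPM in each library (bars from 0; Stk11ec-/- replicates 1 to 3, then WT replicates 1 to 3) of *Cab39*, of 14 endothelial markers summed, of *Nuak1* and of 10 pericyte and smooth muscle markers summed. *Cab39* (7.91 and 7.21 CPM) and the endothelial sum (185 and 250 CPM) are lowest in replicate 3 of each genotype. Single endothelial markers differ, as *Kdr* and *Tie1* are highest in replicate 3 among WT libraries. *Nuak1* and the pericyte and smooth muscle sum are highest in WT replicate 3 (204.3 and 9891 CPM).

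*Sik1* (chr17:31844250-31855804, minus strand), the Sik kinase whose transcript is induced by cAMP signalling in other tissues, had the highest FPKM of the members. It was at 108.9, 97.8 and 201.9 CPM in Stk11ec-/- replicates 1, 2 and 3, against 138.4, 167.9 and 106.5 CPM in WT replicates 1, 2 and 3. The highest library of all was Stk11ec-/- replicate 3 and the lowest was Stk11ec-/- replicate 2, so the mutant libraries enclosed the WT ones. The means were 136.2 ± 57.1 CPM in Stk11ec-/- libraries and 137.6 ± 30.7 CPM in WT libraries (SD, n = 3 each), and its log2 fold change was -0.01 (SE 0.36, edgeR's quasi-likelihood test, adjusted p = 0.99). Its sign was not stable: it was positive in 6 of 17 alternatives.

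*Sik2* (chr9:50892801-51009026, minus strand) was at 52.6, 43.3 and 60.2 CPM in Stk11ec-/- replicates 1, 2 and 3, against 51.9, 58.6 and 31.3 CPM in WT replicates 1, 2 and 3. WT replicate 3 was the lowest library, the other 5 lay between 43.3 and 60.2 CPM. The log2 fold change was 0.14 (SE 0.31, edgeR's quasi-likelihood test, adjusted p = 0.94), and without WT replicate 3 it was -0.09. *Sik2* overlaps *Ppp2r1b* on the other strand over 1429 bases.

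*Sik3* (chr9:46012820-46224194, plus strand) was the most even member, and the only one whose groups did not overlap in CPM. It was at 102.3, 104.2 and 106.6 CPM in Stk11ec-/- replicates 1, 2 and 3, against 111.6, 119.1 and 118.5 CPM in WT replicates 1, 2 and 3. Every Stk11ec-/- library thus lay below every WT library, by a log2 fold change of -0.16 (SE 0.22, edgeR's quasi-likelihood test, adjusted p = 0.89). Groups did not overlap in 1 of 9 members, and in 14.3% of all genes tested, in either direction. Its highest library was 1.16 times its lowest, a ratio smaller than in all but 0.192% of the 8354 genes with a mean of at least 10 CPM. On the FPKM scale *Sik3* was at 10.5, 10.3 and 7.99 in Stk11ec-/- libraries, against 10.5, 8.42 and 7.397 in WT libraries, so that the groups overlapped and the mean was higher in Stk11ec-/- libraries. By limma on log2(FPKM + 1) the log2 difference was 0.12, beside a shift of the median gene of 0.14.

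Within the Sik kinases, *Sik1* made up 56.3%, 54.8% and 68.9% of the summed FPKM of *Sik1*, *Sik2* and *Sik3* in Stk11ec-/- replicates 1, 2 and 3, against 60.8%, 63.4% and 56.5% in WT replicates 1, 2 and 3. The mean share was 60.0% ± 7.76 in Stk11ec-/- libraries and 60.2% ± 3.47 in WT libraries (SD, n = 3 each; two-sided exact permutation test, p = 0.90). Both share tests formed 1 family, and their Benjamini-Hochberg adjusted exact p-values were 1.

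*Mark2* (chr19:7275396-7341819, minus strand), a polarity kinase that detaches microtubule-associated proteins, was at 37.4, 39.3 and 59.6 CPM in Stk11ec-/- replicates 1, 2 and 3, against 49.2, 51.6 and 52.1 CPM in WT replicates 1, 2 and 3. The WT libraries lay close together, and the Stk11ec-/- libraries lay on both sides of them. The log2 fold change was -0.17 (SE 0.28, edgeR's quasi-likelihood test, adjusted p = 0.91), and it turned positive on both FPKM scales. An antisense gene, *Gm17227*, overlaps *Mark2* over 6871 bases.

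*Nuak1* (chr10:84370905-84440597, minus strand), which acts on the myosin phosphatase complex in cell adhesion, was at 67.5, 67.5 and 64.2 CPM in Stk11ec-/- replicates 1, 2 and 3, against 76.3, 66.5 and 204.3 CPM in WT replicates 1, 2 and 3. WT replicate 3 stood apart at 3.07 times the lowest WT library, while the other 5 libraries lay between 64.2 and 76.3 CPM. The log2 fold change was -0.80 (SE 0.45, edgeR's quasi-likelihood test, adjusted p = 0.72). Without WT replicate 3 it was -0.10, and without WT replicate 2 it was -1.08 with an unadjusted p of 0.049 by edgeR. Of all genes, 4.98% had an unadjusted p under 0.05 without WT replicate 2. WT replicate 3 was also highest in smooth muscle genes, with *Des* at 1208 CPM, *Acta2* at 6757 CPM and *Myh11* at 73.3 CPM. These genes were chosen after their values were seen, and their part in the level of *Nuak1* was not tested. Stk11ec-/- replicate 3 had the next highest sum of pericyte and smooth muscle markers, 4618 CPM, with *Nuak1* at 64.2 CPM. Of that sum *Acta2* held 3786 CPM. *Des* (45.3 against 74.2 CPM), *Myh11* (9.66 against 24.7 CPM) and *Mcam* (9.81 against 34.8 CPM) were lower there than in Stk11ec-/- replicate 2. *Cnn1* (15.6 against 8.11 CPM) and *Cspg4* (29.4 against 1.44 CPM) were higher.

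Compared per length, the 9 members spanned more than an order of magnitude. The median FPKM over all 6 libraries was 20.9 for *Sik1* (12.1 to 27.4), 13.0 for *Stk11* (9.65 to 17.1), 10.7 for *Nuak1* (7.37 to 19.99) and 9.37 for *Sik3* (7.397 to 10.5). It was 4.53 for *Mark2* (3.81 to 5.41), 4.29 for *Sik2* (1.90 to 5.26), 3.53 for *Stradb* (2.45 to 5.56), 3.14 for *Cab39* (0.537 to 8.35) and 1.154 for *Cab39l* (0.662 to 4.17). *Sik1* lay above *Stk11*, and *Sik3* above *Mark2*, in all 6 libraries. The other neighbours in this order were not separated in every library: *Stk11* exceeded *Nuak1* in 5 libraries, *Nuak1* exceeded *Sik3* in 4, *Mark2* exceeded *Sik2* in 5, *Sik2* exceeded *Stradb* in 3, *Stradb* exceeded *Cab39* in 3 and *Cab39* exceeded *Cab39l* in 4.

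Set among the other kinases that Lkb1 activates, *Sik1* again came first. Of the 14 genes of the family, 13 had a locus of their own. By median FPKM, *Nuak2* at 13.2 and *Mark4* at 9.38 stood among *Sik1*, *Nuak1* and *Sik3*, and *Prkaa1* at 5.45 and *Snrk* at 4.74 stood near *Mark2* and *Sik2*. *Mark3* followed at 2.27, *Mark1* at 1.36, *Brsk1* at 0.947 and *Prkaa2* at 0.712. Of the AMPK catalytic subunits, *Prkaa1* exceeded *Prkaa2* in every library, with a lowest FPKM of 3.85 for *Prkaa1* and a highest of 1.54 for *Prkaa2*.

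**Figure D4:**
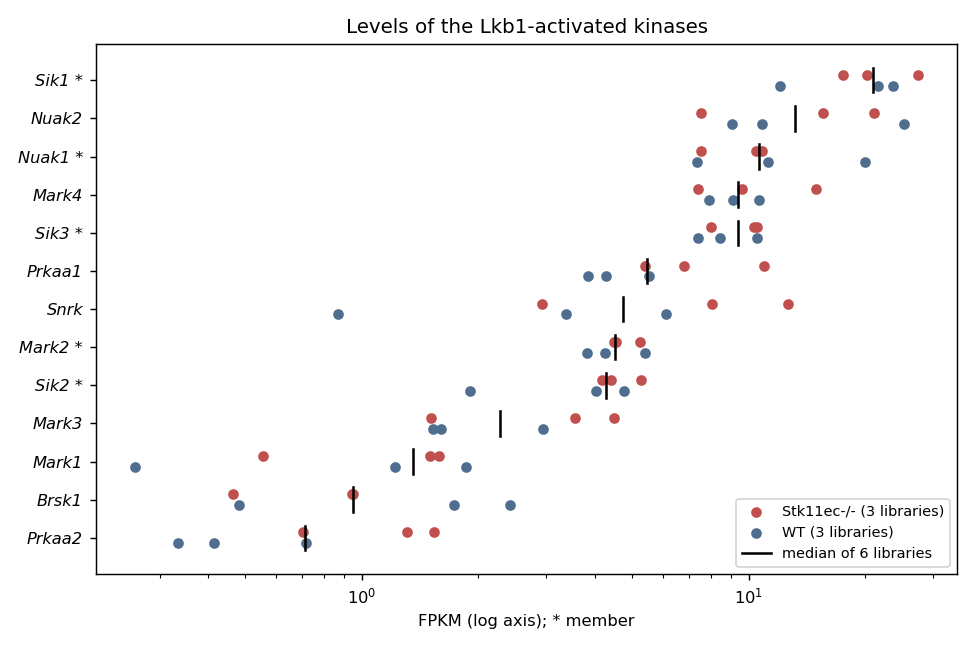
FPKM (horizontal log axis) of the 13 Lkb1-activated kinases with a locus of their own, ordered by the median over 6 libraries (black bars); points are Stk11ec-/- libraries and WT libraries, and asterisks mark members. *Sik1* has the highest median (20.9) and *Prkaa2* the lowest (0.712), and the genotypes overlap for each of the 5 members.

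The genes whose pattern over the 6 libraries came nearest to that of *Stk11*, by Euclidean distance of mean-centred log2 CPM, were *Arhgef40* (0.10), *Dctn1* (0.13) and *Zdhhc1* (0.16). *Dctn1*, for example, was at 222.8, 301.7 and 276.5 CPM in Stk11ec-/- libraries, against 244.1, 302.9 and 274.7 CPM in WT libraries. Of the other members, *Sik3* was nearest to *Stk11* (0.43, rank 255 of all genes tested) and *Cab39* farthest (3.26, rank 16606). The distance uses 6 libraries that share their depth and cell makeup, and it is a description only.

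The wider pathway was read from 10 lists holding 74 genes, of which 68 were tested. By edgeR with Benjamini-Hochberg adjustment 0 of the 68 passed. Without adjustment, 7 had a p under 0.05 (5 higher and 2 lower in Stk11ec-/- ECs), or 10.3% of the 68 beside 7.33% of all genes. The median log2 fold change of the 68 was 0.10, beside 0.02 for all genes tested, and groups did not overlap for 11.8% of them beside 14.3% of all genes. DESeq2 called 0 genes of these lists. The endothelial markers had a median log2 fold change of 2.52 between the same groups, and their part in the values that follow was not tested.

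Among the kinases that Lkb1 activates outside the member list, 1 of 8 tested genes had an unadjusted p under 0.05. This was *Prkaa2*, the AMPK α2 subunit, at 12.9, 11.3 and 8.08 CPM in Stk11ec-/- libraries, against 6.55, 5.04 and 4.61 CPM in WT libraries. Every Stk11ec-/- library exceeded every WT library, by a log2 fold change of 0.99 (SE 0.35, edgeR's quasi-likelihood test, adjusted p = 0.66). In FPKM the groups of *Prkaa2* overlapped, with 0.706 in the lowest Stk11ec-/- library against 0.718 in the highest WT library. *Prkaa1*, the AMPK α1 subunit, averaged 41.5 ± 12.1 CPM in Stk11ec-/- libraries and 30.3 ± 3.64 CPM in WT libraries (SD, n = 3 each), and its log2 fold change of 0.46 did not pass. Of 4 tested regulatory subunits of AMPK, *Prkab2* was at 48.6, 33.0 and 194.3 CPM in Stk11ec-/- libraries, against 27.5, 23.8 and 33.4 CPM in WT libraries. Its Stk11ec-/- replicate 3 was far above the rest, and its log2 fold change was 1.70 (SE 0.64, edgeR's quasi-likelihood test, adjusted p = 0.66). *Prkag1*, *Prkag2* and *Prkab1* had log2 fold changes of 0.07, 0.10 and -0.03.

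Mo25 also binds kinases of the Ste20 group that control ion transport and cell shape. Of 4 tested, *Stk39*, the kinase Spak, was at 25.4, 19.2 and 28.8 CPM in Stk11ec-/- libraries, against 13.4, 5.17 and 8.72 CPM in WT libraries. Its groups did not overlap, with a log2 fold change of 1.43 (SE 0.40), an unadjusted p of 0.0096 and an adjusted p of 0.62 by edgeR's quasi-likelihood test. *Oxsr1*, its close relative, had a log2 fold change of 0.59 and did not pass. The kinases that can act on AMPK in place of Lkb1 held no gene below the unadjusted threshold. *Map3k7* (Tak1) came closest, at 87.3, 91.7 and 87.6 CPM in Stk11ec-/- libraries, against 66.3, 48.7 and 69.1 CPM in WT libraries, and its log2 fold change was 0.53 and an unadjusted p of 0.066 by edgeR.

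Hsp90 and Cdc37 are chaperones that stabilize the Lkb1 protein. *Cdc37* was at 46.4, 57.4 and 71.7 CPM in Stk11ec-/- libraries, against 81.4, 86.1 and 120.2 CPM in WT libraries. All Stk11ec-/- libraries lay below all WT libraries, by a log2 fold change of -0.71 (SE 0.29, edgeR's quasi-likelihood test, adjusted p = 0.67). *Hsp90aa1* had a log2 fold change of 0.70 in the other direction and an unadjusted p of 0.14 by edgeR. Of 7 tested genes of 14-3-3 proteins, none had an unadjusted p under 0.05; *Ywhab* had the smallest, 0.062 by edgeR, at a log2 fold change of 0.66.

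Downstream of the Sik kinases, 6 tested substrates held no gene at an unadjusted p under 0.05. *Hdac7*, a class IIa deacetylase expressed in endothelium, was at 113.0, 148.6 and 180.0 CPM in Stk11ec-/- libraries, against 192.5, 275.7 and 214.8 CPM in WT libraries. The groups did not overlap, with a log2 fold change of -0.63 and an unadjusted p of 0.061 by edgeR. The Crtc coactivators *Crtc1*, *Crtc2* and *Crtc3* had log2 fold changes of -0.35, -0.34 and -0.30. Of 9 tested genes that Crtc and Creb drive, *Nr4a1* was at 4.88, 3.39 and 5.82 CPM in Stk11ec-/- libraries, against 9.45, 10.8 and 11.9 CPM in WT libraries. The groups did not overlap and the log2 fold change was -1.19 (SE 0.36), with an unadjusted p of 0.012 and an adjusted p of 0.62 by edgeR's quasi-likelihood test. The Creb targets *Per1*, *Pck1* and *Pde4d* had log2 fold changes of -0.61, -1.92 and 0.44, and none of them passed. *Pck1* was at 0 CPM in Stk11ec-/- replicates 2 and 3 and in WT replicate 3. *Nr4a1* is also an immediate early gene, a class that responds to handling of cells; of 17 such genes tested, *Klf6* was the other with an unadjusted p under 0.05, at a log2 fold change of 0.79. The summed level of those 17 genes was 850.7 to 1044 CPM in Stk11ec-/- libraries and 659.9 to 948.3 CPM in WT libraries.

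Of 8 tested partners and substrates of *Nuak1* and *Mark2*, the microtubule-associated protein gene *Map4* alone had an unadjusted p under 0.05. It was at 1012, 612.7 and 534.1 CPM in Stk11ec-/- libraries, against 452.3, 327.0 and 396.1 CPM in WT libraries. Every Stk11ec-/- library exceeded every WT library, by a log2 fold change of 0.88 (SE 0.33, edgeR's quasi-likelihood test, adjusted p = 0.66). *Ppp1r12a*, the myosin phosphatase subunit that Nuak1 phosphorylates, averaged 22.7 ± 5.14 CPM in Stk11ec-/- libraries and 16.2 ± 4.63 CPM in WT libraries (SD, n = 3 each) and did not pass.

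**Figure D5:**
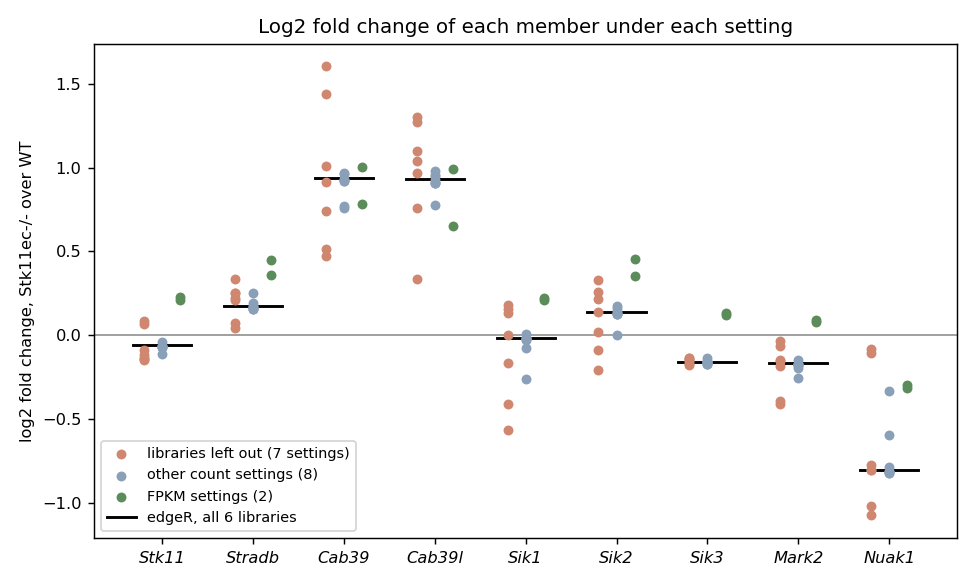
Log2 fold change (vertical axis) of each member between Stk11ec-/- and WT ECs from edgeR with all 6 libraries (black bars) and under 17 other settings (points: 7 with libraries left out, 8 other count settings, 2 FPKM settings). *Cab39*, *Cab39l* and *Stradb* stay above 0 and *Nuak1* below 0 throughout, with *Nuak1* between -1.08 and -0.08.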

How the data were processed

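RNA of ECs from 3 Stk11ec-/- and 3 WT libraries was sequenced. Alignment was by HISAT2 to GRCm38 and analysis by StringTie per the methods, but BWA, TopHat, Cufflinks and mm9 stand in the submitters' processing notes, and versions are not given. For each of 91725 loci the authors deposited a whole-number count that was not scaled and an FPKM value scaled to transcript length and library size. Loci with no gene name (0.359% to 0.887% of the reads counted per library) and assembled loci without an Ensembl transcript stayed out of library sizes and tests, together 5.15% to 8.97% of the counts in Stk11ec-/- libraries and 7.00% to 13.8% in WT libraries.

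Log2 fold changes came from the counts with edgeR 4.0.16 (R 4.3.3; TMM scaling, default filter, a quasi-likelihood test on genotype alone), with Benjamini-Hochberg adjustment at 0.05 over 17396 genes. Shares of FPKM were compared by exact permutation over libraries. Alternatives used DESeq2 1.42.0, limma 3.58.1 (voom with sample weights, and log2 FPKM with 1 or 0.1 added), other filters, scalings and loci, the replicate number as a block, and libraries left out. Fold changes on a log2(FPKM + pseudocount) scale understate those of low genes. Sequences come from GENCODE M21, and shares and plots were made in Python 3.11.15. Named genes are the members, up to 4 genes of smallest p in each list and the 3 genes nearest to *Stk11*. The other Lkb1-activated kinases given by FPKM, and *Xist* and *Kdm5d*, fall outside that rule. So do the endothelial markers *Pecam1*, *Cdh5*, *Esam*, *Tek*, *Erg*, *Sox17*, *Sox18*, *Robo4* and *Cldn5*. The markers *Col1a1*, *Acta2*, *Myh11*, *Dpt*, *Cd3e* and *Epcam* fall outside it too. All of these genes were named after their values were seen. The members and lists were chosen with earlier results of these data known.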

Additional observations from a re-analysis of the deposited data

Results flagged for a closer look

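Loci that carry a member's symbol but no Ensembl transcript were used in no comparison. One of them, a short unstranded stretch named *Cab39* just beyond the end of that gene (chr1:85852773-85852982), held 8, 8 and 23 reads in Stk11ec-/- replicates 1, 2 and 3, against 0 reads in each WT library, where a count of 0 allows up to 3. Its lowest count in Stk11ec-/- libraries was 8, which was set against that limit in reads. Scaled to library size, these are 0.140, 0.205 and 0.490 CPM in Stk11ec-/- libraries, where 3 reads would be 0.136, 0.101 and 0.0781 CPM in WT libraries, so Stk11ec-/- replicate 1 barely exceeds what WT replicate 1 allows. The stretch was singled out for its absence from WT libraries, and the difference was not tested. The annotated *Cab39* locus held 3888, 2141 and 371 reads in Stk11ec-/- libraries, against 871, 643 and 277 reads in WT libraries. A stretch named *Cab39l* (chr14:59549750-59550522), inside that gene, held 4, 32 and 22 reads in Stk11ec-/- libraries, against 8, 0 and 0 reads in WT libraries. One named *Sik1*, beyond the end of that gene (chr17:31841660-31843051) held 14, 29 and 132 reads in Stk11ec-/- libraries, against 35, 46 and 23 reads in WT libraries.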

How the results depend on the processing

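No member passed the adjusted threshold under any of the 17 alternatives. Members at an unadjusted p under 0.05 numbered 0 to 1 with any single library left out (*Cab39l* without Stk11ec-/- replicate 3, *Nuak1* without WT replicate 2) and 2 with neither Stk11ec-/- replicate 3 nor WT replicate 3 (*Cab39* and *Cab39l*). Of all genes tested, 10.8% had such a p by edgeR without Stk11ec-/- replicate 3, 4.98% without WT replicate 2 and 12.8% with neither replicate 3. The 13 genes called in all became 36 with no filter on low counts, 216 with DESeq2, 23 with limma on log2(FPKM + 0.1), 2 to 4 with any single library left out, and 0 with neither replicate 3, where 2254 had an unadjusted p under 0.05. Replicate numbers did not pair the libraries (correlations of same-numbered deviations 0.26, -0.24 and 0.04), and with a replicate block 1 gene and 0 members were called.

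On log2(FPKM + 1) and log2(FPKM + 0.1), the median gene shifted by 0.14 and 0.29, and the sign turned for *Stk11* (0.21 and 0.23), *Sik1* (0.21 and 0.22), *Sik3* (0.12 and 0.13) and *Mark2* (0.0764 and 0.0929). With single libraries left out, the log2 fold change ran between -0.14 and 0.0842 for *Stk11*, -0.41 and 0.18 for *Sik1*, -0.0869 and 0.33 for *Sik2*, and -0.0070 and 0.27 for the joined *Strada* locus. With neither replicate 3, *Sik1* was at -0.57, *Mark2* at -0.39 and *Sik2* at -0.21. *Sik2* was at -8.2e-05 with voom, and *Sik1* at 0.0046 with no filter on low counts. The difference in the *Cab39* share ran between -11.7 and 8.84 percentage points, and that in the *Sik1* share between -4.67 and 2.38, with single libraries left out. The cause of these turns was not tested. The planned share of *Strada* among both pseudokinase genes was not run, as *Strada* has no locus of its own.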
